A study of Saccharomyces cerevisiae with 12 samples.

Results

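The study concerns how TREX-2, a complex of transcription and mRNA export, works through Mediator. Here transcript levels were compared between budding yeast lacking CDK8 and budding yeast expressing wild type SAC3. The comparison takes 3 samples of a cdk8∆ strain and 3 of a SAC3 wild type strain, and rows of the deposited table were kept where RPKM averaged 1 or more across all 12 samples of the study, which left 6124 of 7126 rows. RPKM is the read density of a gene per kilobase of exon, scaled to the size of the library. The wild type samples were sac3∆ cells whose only SAC3 was a 13MYC-tagged copy on the plasmid pRS315. The cdk8∆ samples had a native, untagged SAC3 and pRS315 without an insert. The other samples, 3 each, were the sac3∆ strain with the empty plasmid and the sac3∆ strain with plasmid SAC3 carrying the R288D substitution, and they were used to see whether a change also stood out against them. All strains grew in synthetic medium without leucine to mid-log density. Replicates are separate samples per the labels, but nothing says that they were separate cultures, so p-values measure the spread between samples, which may be technical. The loss of CDK8 and the change of SAC3 from a tagged plasmid copy to the native gene came together in this comparison and cannot be told apart within it. The sac3∆ and R288D samples also lacked the native SAC3, so comparing cdk8∆ with them does not separate these changes either.

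CDK8, named SSN3 or SRB10 in yeast, encodes the cyclin-dependent kinase of the Mediator kinase module. The module also holds cyclin C (SSN8), Med12 (SRB8) and Med13 (SSN2), and it binds Mediator, the complex that carries signals from DNA-bound activators to RNA polymerase II, reversibly. In yeast the kinase is known for phosphorylating activators such as Gcn4, Msn2 and Ste12, some of which it marks for destruction, and its mutants were first isolated for relief of glucose repression.

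Transcripts of the deleted kinase gene were nearly absent from the mutant. SSN3 (locus YPL042C on the minus strand of chromosome XVI, 473040 to 474707) was at 49.7, 49.8 and 49.7 RPKM in the wild type samples and at 0.121, 0.284 and 0.211 in the cdk8∆ samples. All 3 cdk8∆ values lay below every one of the other 9, which ran at means of 47.8 ± 3.23 in sac3∆ and 56.9 ± 3.67 in R288D (SD, n = 3). Its log2 change was -5.40 ± 0.07 (limma standard error, adjusted p = 2.68e-13). Changes throughout are log2 ratios of RPKM plus 1, which understates those of scarce genes, and a gene is called, or said to rise or fall, where limma's adjusted p, corrected over all 6124 rows by Benjamini-Hochberg, is under 0.05.

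Small rises were called in the other kinase module transcripts, beside 31.5% of all rows. SRB8 rose by 0.47 ± 0.05 (limma adjusted p = 1.03e-05), SSN8 by 0.36 ± 0.07 (8.34e-04) and SSN2 by 0.18 ± 0.06 (0.0135). Among 5 equal bins of the rows by mean level, SRB8 and SSN2 lie in the second scarcest. There 48.2% of rows rose and the median change was 0.17, near that of SSN2. Against sac3∆ and R288D SSN2 did not pass (0.087 and -0.015, limma adjusted p of 0.191 and 0.823). The call of SSN2 ended without wild type replicate 3 (limma adjusted p = 0.0539), with sample medians set equal (0.13, limma adjusted p = 0.07) and under quantile normalization, which gives each sample the same distribution of values (0.04, limma adjusted p = 0.591). Of 20 other Mediator subunits 5 rose and 4 fell, beside 31.5% and 30.6% of all rows. NUT2 (Med10), a subunit of the middle module, was the largest rise of them at 0.66 ± 0.10, from 29.1, 33.2 and 28.6 RPKM to 46, 49.2 and 50.1, and PGD1 (Med3), a tail subunit, the largest fall at -0.41 ± 0.08. SAC3, the TREX-2 scaffold, was at 51.3, 53.5 and 48.9 RPKM from the plasmid in wild type and at 33.6, 33.8 and 33.1 from its own locus in cdk8∆. The groups did not overlap, and the change was -0.60 ± 0.06 (limma adjusted p = 2.53e-06). Of the other TREX-2 transcripts SEM1, which is shared with the proteasome, fell by 0.52 ± 0.07 on the log2 scale, SUS1, which is shared with SAGA, rose by 0.23 ± 0.08, and CDC31 and THP1, at 0.12 and 0.02, did not pass. The call of SUS1 ended without cdk8∆ replicate 1 or 2 or wild type replicate 3 (limma adjusted p of 0.0503, 0.0734 and 0.0884) or with medians set equal (0.0677), and those of PGD1 and SEM1 ended once the authors' scaling of library size was undone (-0.04 and -0.13).

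The 3 annotated genes on either side of each altered locus were read as well. NOP4 (YPL043W, chromosome XVI, 469939 to 471996, plus strand), the nearest annotated gene before SSN3 and a ribosome biogenesis factor, fell from 38.1 ± 3.03 to 24.1 ± 1.97 RPKM (log2 change -0.64 ± 0.14, limma adjusted p = 0.00146). On the other side the nearest gene, MRX11, did not pass at 0.04. Further out VPS16, a vacuolar protein sorting gene, and the open reading frame YPL039W rose by 0.20 ± 0.06 and 0.48 ± 0.08 (limma adjusted p of 0.0133 and 1.64e-04), and ELC1 and ISM1 did not pass. The call of VPS16 ended with medians set equal (0.14), under quantile normalization (0.05) and without cdk8∆ or wild type replicate 3 (0.17 and 0.16). Beside SAC3, HOM2 and SSY1 did not pass at -0.38 and 0.12, while RPA14, an RNA polymerase I subunit gene that overlaps the open reading frame YDR157W further upstream, fell by 0.66 ± 0.13 on the log2 scale and ACL4, a ribosomal protein chaperone, by 0.41 ± 0.09. YDR157W itself changed by -0.68 ± 0.11 (limma adjusted p = 1.99e-04), and NBP2 did not pass. With the library scaling undone NOP4, RPA14 and ACL4 no longer passed, at -0.27, -0.28 and -0.03.

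Depth recovered from the values was 16.3 to 21.3 M reads (mega-reads) in wild type and 18.0 to 22.4 M in cdk8∆. The authors' scaling of library size set the groups apart. As a multiple of the reads recovered, scaled size was 0.864 to 0.892 in wild type, 1.14 to 1.18 in cdk8∆ and 0.967 to 0.999 in the other groups. Undoing this scaling raises the median change of all rows by 0.37, so that changes can be read only relative to the typical gene. Read shares, which do not depend on the scaling, are given beside some of the gene lists. Markers of mating type were those of a cells in both groups: the pheromone gene MFA2 was at 821 RPKM in wild type and 396 in cdk8∆, and the alpha-factor gene MF(ALPHA)1 at 3.07 and 6.19. Of 7 a-cell markers 3 rose and 2 fell, beside 31.5% and 30.6% of all rows. All 4 alpha-cell markers rose from low levels (median 0.77), or 2 of them under quantile normalization (median 0.42). Among these SAG1 was at 14.9 RPKM in wild type and 24.4 in cdk8∆.

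In all, 3802 of 6124 rows (62.1%) were called: 1926 rose (31.5%) and 1876 fell (30.6%). Each count of list members called against wild type is to be read beside these shares. With the library scaling undone the calls split into 4074 higher and 678 lower. The median size of a called change was 0.44, against a median standard error of 0.0734. At least 2-fold changes were 281 rises (4.59%) and 206 falls (3.36%), and at least 4-fold ones 50 rises and 27 falls. The rises of 2-fold or more were in scarce transcripts, with a median of 4.81 RPKM in wild type, and the falls in abundant ones, with a median of 303 RPKM. Across 5 equal bins of the rows by mean level the median change ran from 0.33 in the scarcest to 0.17, 0.06, -0.09 and -0.39 in the most abundant. This slope was flatter against the other groups, where the most abundant bin had a median of -0.07 against sac3∆ and -0.08 against R288D and the scarcest 0.19 and 0.22. The share called depended on level as well. Against wild type 47.5% of the scarcest bin rose and 7.67% fell, while 6.04% of the most abundant rose and 67.6% fell.

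**Figure D1:**
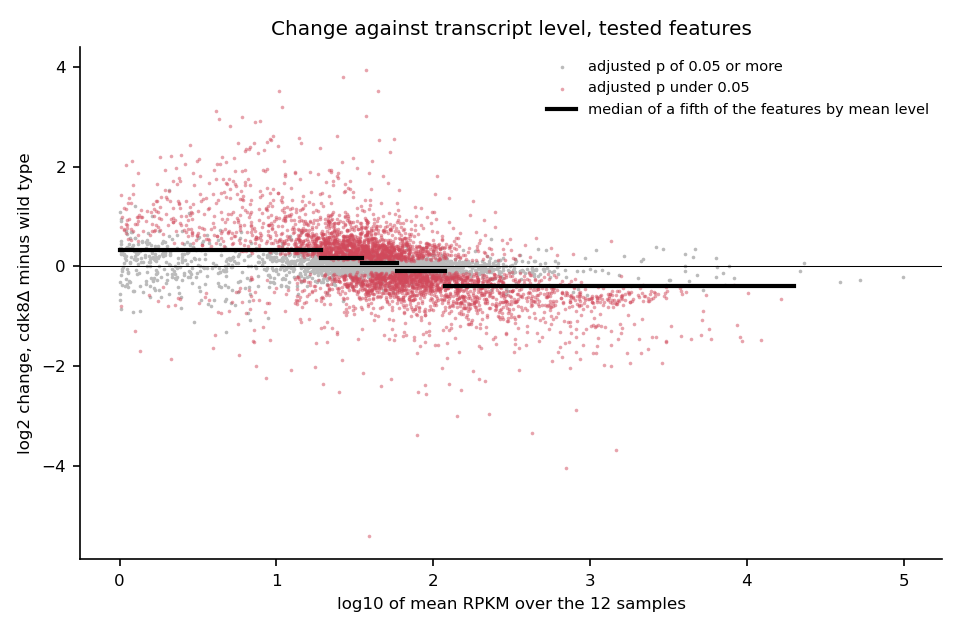
The log2 change of each of the 6124 tested rows (cdk8∆ minus wild type) against the log10 of its mean RPKM over 12 samples, with called rows in red and black bars at the median of each of 5 bins of rows by level. The bars step down from 0.33 in the scarcest bin to -0.39 in the most abundant.

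Genes of the general stress response fell as a group, and several were among the largest falls of all. YGP1 (YNL160W, chromosome XIV, 336545 to 337609, plus strand), which encodes a secreted cell wall glycoprotein, was at 754, 891 and 811 RPKM in wild type and at 46, 50.9 and 49 in cdk8∆. HSP12 (YFL014W, chromosome VI, 107256 to 107585, plus strand), a small membrane-binding stress protein, was at 1946, 1756 and 1756 in wild type and 142, 160.1 and 122 in cdk8∆. For both genes the mutant samples lay far below all of the others. Against wild type the fall was 16.5-fold for YGP1 (log2 change -4.04 ± 0.06, limma adjusted p = 4.02e-13) and 12.8-fold for HSP12 (-3.68 ± 0.11, 3.33e-10). HSP30, a plasma membrane protein that restrains the proton pump, stood at 1038, 1044 and 863 RPKM in wild type and 134, 134 and 129 in cdk8∆ (log2 change -2.88 ± 0.09, limma adjusted p = 3.22e-10). Of the 47 tested genes listed as targets of Msn2 and Msn4, the activators of the general stress response, 40 fell, 1 rose and 6 did not pass, with a median change of -1.16 beside 0.01 for all rows. Over all rows 30.6% fell and 31.5% rose. Under quantile normalization 39 of the list fell and 2 rose (median -0.84), and with the library scaling undone 33 fell and 5 rose (median -0.78). The 1 that rose on the values as deposited was ALD2, an aldehyde dehydrogenase gene, at 0.18, which became -0.009 under quantile normalization. Its call also ended without cdk8∆ replicate 1 or 2 or wild type replicate 2 or 3 (limma adjusted p of 0.111, 0.084, 0.0909 and 0.0736).

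Most genes of trehalose and glycogen, the carbohydrate reserves, fell. TPS2, the phosphatase of trehalose synthesis, was at 716, 744 and 756 RPKM in wild type and 195, 201 and 200.3 in cdk8∆ (log2 change -1.89 ± 0.09, limma adjusted p = 7.22e-09). Its partner TPS1, the synthase, fell by 1.26 ± 0.08 on the log2 scale, the regulatory subunit TSL1 by 1.70 ± 0.09 and the glycogen synthase GSY2 fell from 596 to 210.4 RPKM. Over 20 tested genes of trehalose and glycogen metabolism, 12 fell and 4 rose (median -0.62), beside 30.6% and 31.5% of all rows. Under quantile normalization 9 fell and 4 rose (median -0.28), and with the library scaling undone 10 fell and 7 rose (median -0.23). HSP26, a small heat shock protein gene, fell by 2.07 and SPI1, for a cell wall protein, by 2.04. CTT1, the cytosolic catalase, fell from 234 to 86.6 RPKM (-1.42) and DDR2, a DNA damage and stress gene, from 313 to 157. The stress list took 2.47 ± 0.0278% of reads in wild type and 1.24 ± 0.0605% in cdk8∆ (SD, n = 3), and between 2.35 and 3.17% in the samples of the other groups.

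Msn2 and Msn4 bind the stress response element, CCCCT on either strand. HSP12 and TPS1 are shown because they are a stress protein and an enzyme that fell and both carry it more than once. Each window runs from 400 to 101 bases before the start codon, read from the RefSeq R64 genome in the direction of the gene, and the capitals mark the element. That of HSP12 is chrVI:106856-107155 (plus strand), of which 108 bases lie within another annotated gene, and that of TPS1 is chrII:490493-490792 (minus strand).
HSP12: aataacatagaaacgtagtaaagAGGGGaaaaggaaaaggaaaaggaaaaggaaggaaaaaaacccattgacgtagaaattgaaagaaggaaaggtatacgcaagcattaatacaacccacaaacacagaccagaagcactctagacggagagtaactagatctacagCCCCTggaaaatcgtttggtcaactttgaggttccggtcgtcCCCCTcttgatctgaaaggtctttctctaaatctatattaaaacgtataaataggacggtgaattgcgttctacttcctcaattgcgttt
TPS1: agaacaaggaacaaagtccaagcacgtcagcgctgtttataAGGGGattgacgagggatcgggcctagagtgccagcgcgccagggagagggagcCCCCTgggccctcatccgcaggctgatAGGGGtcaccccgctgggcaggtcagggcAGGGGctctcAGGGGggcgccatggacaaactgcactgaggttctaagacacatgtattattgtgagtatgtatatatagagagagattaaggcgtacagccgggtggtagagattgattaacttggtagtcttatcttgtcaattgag
The element occurs 3 times in the HSP12 window and 5 times in that of TPS1. It was in 80.9% of the 47 windows of the stress list, 23.5% of the windows of all 6001 protein-coding genes that have one, 44.7% of 190 genes that fell at least 2-fold and 23.7% of 245 that rose at least 2-fold. The list was itself drawn up as targets of these factors, and 27 of its 47 genes fell at least 2-fold. The share among the falls thus partly counts the same genes again, and these shares are a description only. YGP1 and HSP30 have no CCCCT in their windows.

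**Figure D2:**
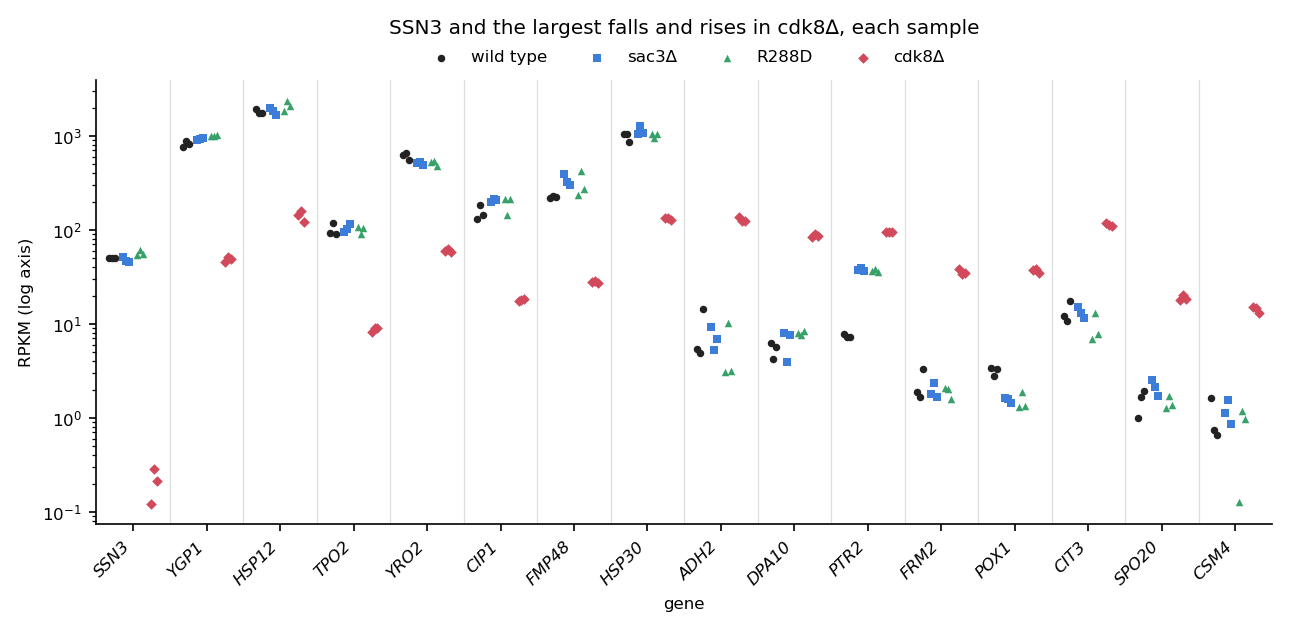
RPKM on a log axis in each of the 12 samples for SSN3, the 7 largest falls by the naming rule and the 8 largest rises, with 3 points per group. For each gene the 3 cdk8∆ points lie apart from all 9 others, as with YGP1, whose highest cdk8∆ value is 50.9 RPKM and whose lowest value elsewhere is 754.

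Several further falls were in the response to weak acids, which the activator Haa1 controls. TPO2, a polyamine exporter of the plasma membrane, was at 93.5, 118 and 90.8 RPKM in wild type and 8.22, 9.06 and 9.05 in cdk8∆. The fall of 10.4-fold (log2 change -3.37 ± 0.11, limma adjusted p = 4.66e-10) left all 3 cdk8∆ samples below each of the other 9. YRO2, a membrane protein related to Hsp30, fell from 622, 661 and 559 RPKM to 60, 62.4 and 57.7 (log2 change -3.33 ± 0.07, limma adjusted p = 1.03e-11). PHM8, a nucleotide phosphatase, fell from 88, 90.5 and 74.1 to 16.9, 16.3 and 13.4 (log2 change -2.37 ± 0.09). Of 14 tested members of this list 10 fell and 1 rose, beside 30.6% and 31.5% of all rows. The median was -1.05, or -0.66 under quantile normalization and -0.67 with the library scaling undone. YGP1 and SPI1 are among the members that the stress list also holds. HAA1 itself did not pass at 0.10. The member that rose was PCL10, a cyclin of the Pho85 kinase, at 0.77 ± 0.07.

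Other leading falls had various roles. CIP1, an inhibitor of G1 cyclin-dependent kinase, was at 129.6, 182 and 144 RPKM in wild type and 17.6, 17.9 and 18.4 in cdk8∆ (7.99-fold, limma adjusted p = 9.25e-09). FMP48, a putative protein kinase, was at 219.7, 227 and 224 RPKM and 28.1, 28.7 and 27.3 (log2 change -2.95 ± 0.16). In both, the 3 wild type samples were clear of the mutant and below most of the sac3∆ and R288D samples. STP4, a zinc finger protein gene, was at 157 RPKM in wild type, 224 in sac3∆, 196 in R288D and 27.2 in cdk8∆ (log2 change against wild type -2.48 ± 0.08). RCK1, a protein kinase gene of the oxidative stress response, was at 29.7, 34.3 and 47.7 RPKM in wild type, 184, 122 and 129 in sac3∆, 74.7, 229 and 95.9 in R288D and 5.19, 6 and 5.51 in cdk8∆. It fell by 2.52 ± 0.33 against wild type (limma adjusted p = 3.92e-05), with a wider spread in the 3 groups other than cdk8∆. GRE2, a methylglyoxal reductase, fell by 2.40 ± 0.11 and PNS1, a transporter-like protein gene, by 2.55 ± 0.16. BSC1 and PRM7, neighbours on the minus strand of chromosome IV, both fell, by 2.52 ± 0.12 and 2.36 ± 0.11. ARG3, the ornithine carbamoyltransferase of arginine synthesis, fell from 48.6, 45.7 and 50.4 RPKM to 11, 10.2 and 9.34 (log2 change -2.14 ± 0.09), and INO1, inositol phosphate synthase, from 100.4, 98.2 and 93 to 25.1, 22.3 and 21.2 (-2.04 ± 0.08). INO1 differed between the other groups too, at 42.9 RPKM in sac3∆ and 292 in R288D, and was lower in cdk8∆ than in both (-0.88 and -3.62).

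Chaperone and proteasome genes fell as groups with smaller changes. All 33 tested proteasome genes fell (median -0.74), beside 30.6% of all rows. In the most abundant bin of rows 67.6% fell and the median was -0.39. Under quantile normalization 32 fell (median -0.40), and with the library scaling undone 31 fell (median -0.35). PRE4, a core particle subunit, was at 364, 356 and 352 RPKM in wild type and 188, 184 and 185 in cdk8∆ (log2 change -0.94 ± 0.04, limma adjusted p = 2.22e-09), and RPN2, a regulatory particle subunit, at 297, 304 and 308 and 176, 175 and 176 (-0.78 ± 0.04). Their samples did not overlap, and all 33 genes also fell against sac3∆ and against R288D (medians -0.59 and -0.54), where 32.9% and 32.3% of all rows fell. The list took 1.04 ± 0.00928% of reads in wild type and 0.817 ± 0.0178% in cdk8∆ (SD, n = 3). Of 30 chaperone genes 27 fell and none rose (median -0.55). This depended on the scaling, as 19 fell and 5 rose under quantile normalization (median -0.26), and 16 fell and 3 rose with the library scaling undone (median -0.17). The chaperone list took 2.53 ± 0.0964% of reads in wild type and 2.065 ± 0.0303% in cdk8∆ (SD, n = 3). In the samples of the other groups it took 2.06 to 2.29%. SSA4, the stress-induced Hsp70, fell by 1.58 ± 0.06 on the log2 scale, HSP42 by 1.33 ± 0.07 and HSP104, the disaggregase, by 1.18 ± 0.07. SSA1 fell by 1.10 ± 0.06, but it shares much sequence with SSA2, and how the authors split reads between such copies is not given in the sources used here.

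Most glycolytic transcripts, among the most abundant in the cell, fell. PGK1, phosphoglycerate kinase, was at 6417, 6221 and 5936 RPKM in wild type and 2369, 2144 and 2233 in cdk8∆ (log2 change -1.46 ± 0.07, limma adjusted p = 1.04e-08). CDC19, the main pyruvate kinase, was at 8424, 8466 and 8193 and 3222, 2882 and 3000 (-1.46 ± 0.08, 1.73e-08). In both, the cdk8∆ samples lay below all others, and sac3∆ and R288D lay between them and wild type, at means of 4354 and 4769 for PGK1. Of 21 tested genes of glycolysis and fermentation 18 fell and 3 rose (median -1.17), and 14 of the falls were at least 2-fold, beside 3.36% of all rows. In the most abundant bin of rows 67.6% fell, and 138 of 1225 rows fell at least 2-fold. The median of the list was -0.56 under quantile normalization, where 15 fell and 5 rose, and -0.78 with the library scaling undone, where 18 fell and 3 rose. The list took 10.3 ± 0.12% of reads in wild type and 5.58 ± 0.139% in cdk8∆ (SD, n = 3). The 3 that rose were the minor isozymes PDC6 and PDC5 of pyruvate decarboxylase, at 1.67 and 0.46, and PYK2, the minor pyruvate kinase, at 0.71. ENO1 fell by 1.45 ± 0.06 and TDH1 by 1.16 ± 0.06, both members of near-identical families.

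Of 18 tested genes of hexose transport and sensing 12 fell and 5 rose, beside 30.6% and 31.5% of all rows. With the library scaling undone 9 of them fell and 5 rose. HXT3, a low-affinity hexose transporter, was at 1093, 1105 and 1145 RPKM in wild type and 472, 476 and 448 in cdk8∆ (log2 change -1.26 ± 0.05, limma adjusted p = 4.11e-09). The kinases HXK1 and GLK1, which start glycolysis and are also in the stress list, fell by 1.58 ± 0.13 and 1.71 ± 0.09. The high-glucose sensor RGT2 rose, from 16.8, 17.4 and 17.4 RPKM to 29.1, 28.9 and 27.8 (0.70 ± 0.05).

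**Figure D3:**
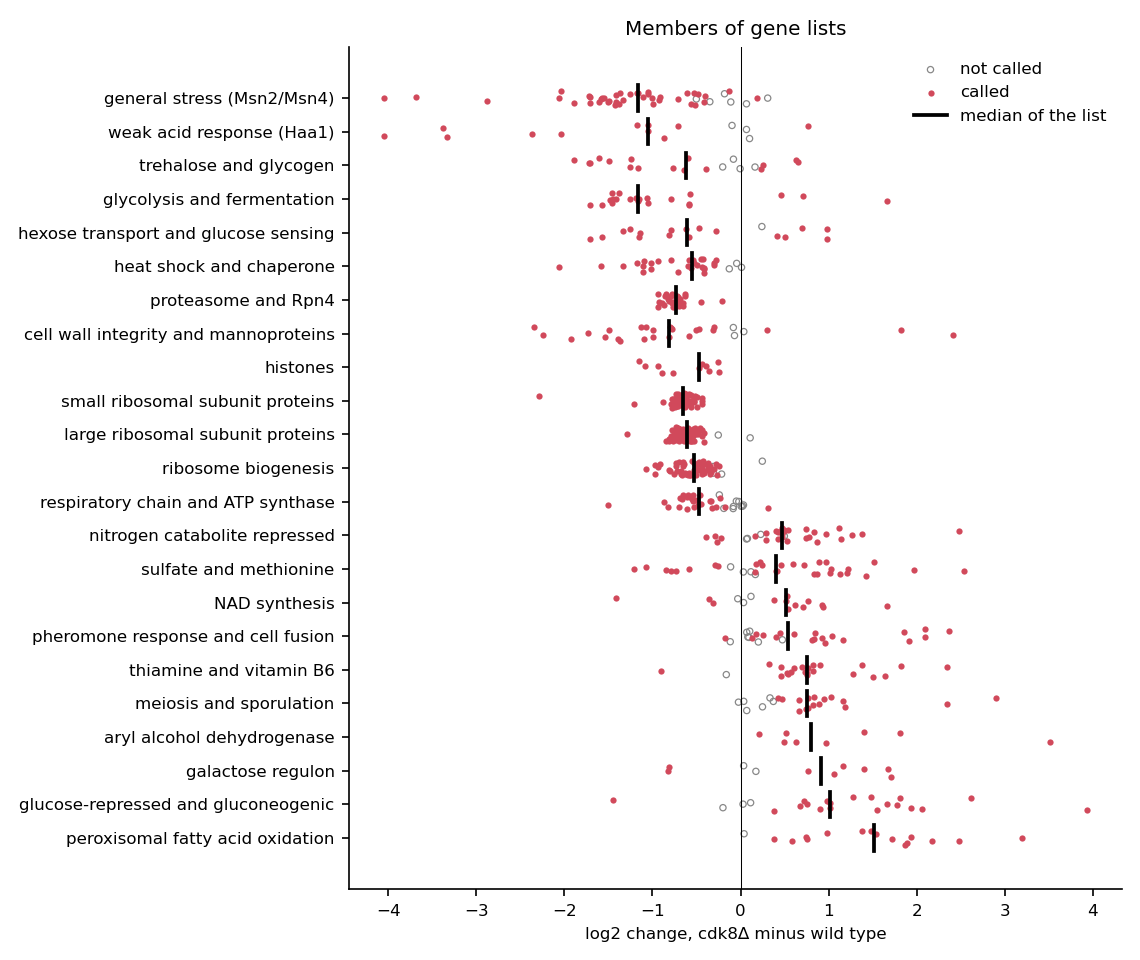
The log2 change (cdk8∆ minus wild type) of each tested member of 23 gene lists, 1 point per gene, red where called, with a black bar at the list's median. Medians run from -1.17 in glycolysis (-0.56 under quantile normalization) and -1.16 in the general stress list to 1.51 in peroxisomal fatty acid oxidation.

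Peroxisomal fatty acid oxidation rose almost whole. Yeast burns fatty acids only in peroxisomes, and its genes are repressed by glucose and induced by oleate through the Oaf1-Pip2 activator. POX1 (YGL205W, chromosome VII, 108158 to 110404, plus strand), acyl-CoA oxidase and the entry enzyme, was at 3.39, 2.8 and 3.28 RPKM in wild type, 1.64, 1.59 and 1.43 in sac3∆, 1.31, 1.89 and 1.34 in R288D and 37.6, 38.2 and 35.2 in cdk8∆. The lowest cdk8∆ sample was at 35.2 and the highest of the other 9 at 3.39, a rise over wild type of 9.15-fold (log2 change 3.19 ± 0.12, limma adjusted p = 1.19e-09). CTA1, the peroxisomal catalase, was at 5.93, 5.58 and 6.22 RPKM in wild type and 40, 37.6 and 35 in cdk8∆ (log2 change 2.48 ± 0.17, limma adjusted p = 1.83e-07). SPS19, a dienoyl-CoA reductase, was at 15.3, 13.8 and 16.1 and 60.3, 60.6 and 60 (1.94 ± 0.08), and at 6.78 and 7.39 in sac3∆ and R288D, so that its rise against those groups was larger (2.98 and 2.87).

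The other steps of the pathway moved with them. FOX2, the multifunctional enzyme, rose from 14.3 to 41.6 RPKM (log2 change 1.48 ± 0.12) and POT1, the thiolase, from 9.05 to 36.5 (1.89 ± 0.23). The isomerases ECI1 and DCI1 rose by 1.54 and 1.87. FAA2, the acyl-CoA synthetase, rose by 1.38, and the paired subunits of the fatty acid importer, PXA1 and PXA2, by 1.72 and 0.98. IDP3, which makes peroxisomal NADPH, rose from 17.1 to 80 RPKM (2.17 ± 0.15). PEX11, a peroxisome division protein, rose by 0.75, the thioesterase TES1 by 0.74 and PEX5, the import receptor, by 0.38. Of the paired activators PIP2 rose (0.59 ± 0.06) and OAF1 did not pass (0.04 ± 0.05, limma adjusted p = 0.506). That makes 15 of 16 members risen and none fallen (median 1.51), 10 of them at least 2-fold beside 4.59% of all rows, and the cdk8∆ samples lay above all 9 others for each of the 15. In the scarcest bin of rows 47.5% rose, and 204 of 1225 rows rose at least 2-fold. The list took 0.0524 ± 0.00247% of reads in wild type and 0.155 ± 0.00711% in cdk8∆ (SD, n = 3).

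**Figure D4:**
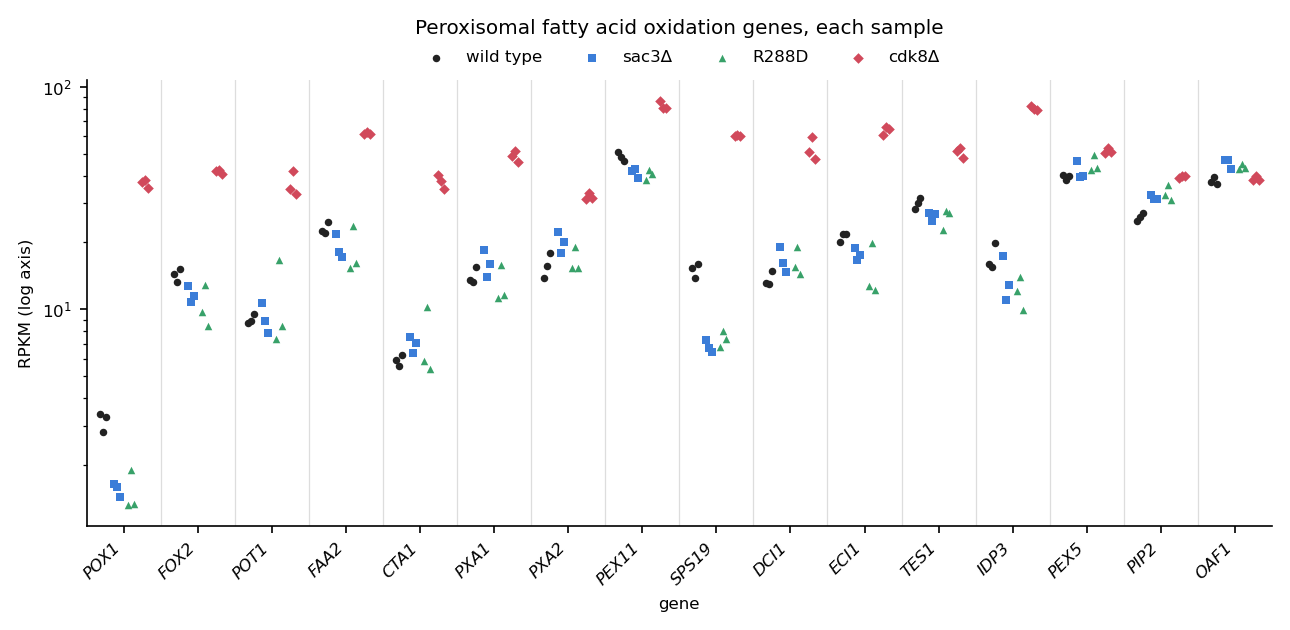
RPKM on a log axis of the 16 peroxisomal fatty acid oxidation genes in each of the 12 samples. The cdk8∆ points (red diamonds) lie above all others for each gene but OAF1, with the widest gap at POX1, where the lowest of them is 35.2 RPKM and the highest of the others 3.39.

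The Oaf1-Pip2 pair binds the oleate response element, and POX1 and CTA1 are shown as members with large rises that carry it. The windows are chrVII:107758-108057 (plus strand) and chrIV:969781-970080 (minus strand, 91 bases of it within another annotated gene), and the capitals mark each match.
POX1: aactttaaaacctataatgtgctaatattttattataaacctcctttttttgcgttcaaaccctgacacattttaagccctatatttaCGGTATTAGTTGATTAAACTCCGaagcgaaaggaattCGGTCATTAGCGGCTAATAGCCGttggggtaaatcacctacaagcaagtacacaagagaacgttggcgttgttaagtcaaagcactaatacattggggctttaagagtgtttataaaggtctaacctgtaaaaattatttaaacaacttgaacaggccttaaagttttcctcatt
CTA1: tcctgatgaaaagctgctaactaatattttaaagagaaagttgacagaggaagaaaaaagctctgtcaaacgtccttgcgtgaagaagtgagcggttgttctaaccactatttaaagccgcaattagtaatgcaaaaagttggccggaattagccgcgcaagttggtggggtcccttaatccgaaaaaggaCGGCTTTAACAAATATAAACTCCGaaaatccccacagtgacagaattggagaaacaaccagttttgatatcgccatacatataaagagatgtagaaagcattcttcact
POX1 holds 2 matches and CTA1 holds 1. The element was in 87.5% of the 16 windows of the list and 1.43% of all 6001 windows, in 7.35% of those of genes that rose at least 2-fold and in 2.63% of those that fell at least 2-fold. Members of the list are known targets of the pair, and this element was added to the search after the values were seen, so the shares are a description only.

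Other genes that glucose represses rose too. ADH2 (YMR303C, chromosome XIII, 873291 to 874337, minus strand), the alcohol dehydrogenase that consumes ethanol, was at 5.45, 4.95 and 14.4 RPKM in wild type, 9.27, 5.21 and 6.92 in sac3∆, 3.05, 10.2 and 3.15 in R288D and 136, 123 and 123 in cdk8∆. The cdk8∆ samples lay above the rest, a rise of 15.3-fold over wild type (log2 change 3.93 ± 0.41, limma adjusted p = 5.87e-06), the largest rise by the naming rule, although wild type replicate 3 and R288D replicate 2 stood well above the other samples of their groups. ADH2 shares sequence with ADH1, which fell from 6485 to 3092 RPKM. CIT3, a mitochondrial citrate and methylcitrate synthase, was at 12, 10.8 and 17.5 RPKM in wild type and 119.6, 112 and 109.9 in cdk8∆ (log2 change 3.02 ± 0.20, limma adjusted p = 1.42e-07). ADY2, an acetate transporter, was at 6.64, 7.54 and 13.8 and 61.6, 63.5 and 53.9 (2.61 ± 0.32).

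Of 22 tested genes of the glucose-repressed and gluconeogenic list 18 rose and 1 fell (median 1.01). The glyoxylate cycle enzymes MLS1 and ICL1 rose by 1.94 and 0.90, and SFC1, which carries succinate into mitochondria in exchange for fumarate, by 2.06. JEN1, the lactate transporter, rose from 14.8 to 51.1 RPKM (1.77 ± 0.40) and the carnitine acetyltransferase YAT2 from 24.8, 22.6 and 25.5 to 73.2, 72.8 and 72.2 (1.55 ± 0.09). SUC2, invertase, rose only by 0.67 ± 0.18. The activator CAT8 rose by 0.72 while ADR1, the activator of ADH2 and of peroxisomal genes, did not pass at -0.20. The member that fell was MDH2, the cytosolic malate dehydrogenase, from 283, 311 and 308 RPKM to 109, 113 and 107 (-1.45 ± 0.06). The list took 0.14 ± 0.0129% of reads in wild type and 0.258 ± 0.0104% in cdk8∆ (SD, n = 3), and 0.148 to 0.231% in the other groups' samples. In the galactose list, whose structural genes glucose also represses, 6 of 10 rose and 2 fell. GAL7, a transferase of galactose breakdown, went from 8.74, 5.52 and 6.08 RPKM to 23.5, 23.4 and 23.5 (1.68 ± 0.14), GAL2, the permease, rose by 1.71, and the regulators GAL3 and GAL4 rose by 1.40 and 1.16, while GAL1 and GAL80 did not pass at 0.17 and 0.04.

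Genes for sporulation, which haploid cells keep off, rose from very low levels. SPS1, a protein kinase of spore wall formation, was at 2.44, 1.69 and 1.78 RPKM in wild type and 21.4, 20.8 and 21 in cdk8∆. SPO20, a SNARE of the prospore membrane, was at 1, 1.68 and 1.94 and 17.9, 20.5 and 18.6. Among the other 9 samples the highest values were 3.68 for SPS1 and 2.50 for SPO20, far below the cdk8∆ samples, with log2 changes of 2.90 ± 0.12 (limma adjusted p = 4.11e-09) and 2.99 ± 0.17 (2.85e-08). CSM4, which moves telomeres in meiosis, went from 1.62, 0.734 and 0.664 to 15.1, 14.6 and 13.1 (2.96 ± 0.26, limma adjusted p = 1.59e-06), and the septin SPR3 from 2.26, 3.68 and 2.15 to 16.5, 18.6 and 17.5 (2.35 ± 0.17). CDA1, a chitin deacetylase of the spore wall, rose from 4.74, 4.8 and 7.11 to 34.6, 40.5 and 37.4 (2.57 ± 0.14).

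Meiotic regulators and recombination genes stayed scarce. Of 22 tested members of the list 16 rose and none fell (median 0.75), beside 31.5% and 30.6% of all rows. In the scarcest bin of rows 47.5% rose and 7.67% fell, with a median of 0.33. Under quantile normalization only 9 of the list rose and 2 fell (median 0.33). The inducer IME1 rose from 4.94 to 9.04 RPKM against wild type (0.77 ± 0.11), but its difference from sac3∆, 0.10, did not pass (limma adjusted p = 0.479). REC8, the meiotic cohesin, rose by 1.19 ± 0.12, SPO11, which makes the meiotic breaks, by 0.89 ± 0.14, and DIT1, of dityrosine synthesis, by 1.16 ± 0.09. NDT80 and ZIP1, at 0.33 and 0.04, did not pass. The list took 0.0113 ± 0.000128% of reads in wild type and 0.0292 ± 0.00105% in cdk8∆ (SD, n = 3).

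Most pheromone response genes rose against wild type, while against the SAC3 mutants more of them fell than rose. These genes are driven by Ste12 and serve the fusion of mating cells. FUS1, a cell fusion protein, was at 7.74, 7.77 and 9.39 RPKM in wild type, 29.6, 27.7 and 26.9 in sac3∆, 28, 31 and 28.6 in R288D and 39.2, 38.5 and 38.2 in cdk8∆. The rise over wild type was 2.10 ± 0.07 (limma adjusted p = 1.06e-09), and the cdk8∆ samples also exceeded the other groups, by 0.45 and 0.39 (2.07e-04 and 5.41e-04). FIG1, a fusion-stage membrane protein, was at 0.667, 0.847 and 0.837 in wild type, 17.1, 17.7 and 20.1 in sac3∆, 22.1, 20.2 and 19.9 in R288D and 5.4, 4.96 and 5.97 in cdk8∆. Its cdk8∆ samples lay above wild type (1.85 ± 0.10) and below both SAC3 mutants (-1.58 and -1.75). Of 26 tested members 18 rose against wild type and 1 fell (median 0.54), and with the library scaling undone all 26 rose (median 0.91). Against sac3∆ 6 rose and 12 fell, beside 31.2% and 32.9% of all rows, and the median was -0.13, or 0.09 with the library scaling undone. STE12 did not pass against wild type at 0.10.

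FUS1 and PRM1 are shown because both rose against wild type, while their order against the SAC3 mutants differed. The windows are chrIII:71403-71702 and chrXIV:110517-110816 (both plus strand), and the capitals mark the pheromone response element, TGAAACA on either strand, which Ste12 binds.
FUS1: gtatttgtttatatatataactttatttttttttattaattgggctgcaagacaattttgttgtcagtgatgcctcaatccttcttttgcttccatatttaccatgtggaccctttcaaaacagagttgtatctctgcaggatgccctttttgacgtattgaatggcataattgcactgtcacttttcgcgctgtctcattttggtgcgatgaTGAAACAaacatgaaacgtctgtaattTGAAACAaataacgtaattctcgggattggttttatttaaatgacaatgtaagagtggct
PRM1: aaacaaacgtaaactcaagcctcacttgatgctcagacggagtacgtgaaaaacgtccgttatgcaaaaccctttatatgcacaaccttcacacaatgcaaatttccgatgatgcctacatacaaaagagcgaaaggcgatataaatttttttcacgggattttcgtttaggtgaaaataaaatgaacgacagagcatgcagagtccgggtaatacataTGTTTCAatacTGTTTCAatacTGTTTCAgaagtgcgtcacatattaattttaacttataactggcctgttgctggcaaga
FUS1 holds 2 elements and PRM1 holds 3. PRM1, a membrane fusion protein, was at 1.32 RPKM in wild type, 9.84 in sac3∆, 14.8 in R288D and 7.75 in cdk8∆. The element was in 61.5% of the 26 windows of the list and 7.63% of all 6001 windows. It was in 5.71% of those of genes that rose at least 2-fold and 4.21% of those that fell at least 2-fold. Members of the list are known for being driven by Ste12, so the shares are a description only. Among a-cell genes ASG7 rose from 13.4, 13.6 and 15.1 RPKM to 85.7, 90.4 and 82.5 (2.54 ± 0.07), above all 9 others, and MFA2 fell (-1.04 ± 0.20). The median of 7 tested a-cell genes was 0.32 against wild type and -1.34 against sac3∆.

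Most cell wall genes fell, among them the most abundant. PST1, a secreted wall protein, was at 234, 264 and 244 RPKM in wild type and 51, 52.8 and 49.9 in cdk8∆ (log2 change -2.25 ± 0.06, limma adjusted p = 7.84e-11). HSP150, a wall protein of the Pir family, was at 2158, 2430 and 2400 and 618, 609 and 604 (-1.93 ± 0.06), and GAS1, a glucan-remodelling enzyme, at 1032, 1079 and 1022 and 375, 339 and 366 (-1.53 ± 0.05). CWP1, a wall mannoprotein, was at 260, 275 and 292 RPKM in wild type, 129, 98.4 and 87.7 in sac3∆, 59.9, 89.9 and 65.2 in R288D and 51.6, 52.3 and 56.2 in cdk8∆, so that all 3 mutants were low and cdk8∆ was below R288D only by 0.40 on the log2 scale (limma adjusted p = 0.035). Of 28 tested members 22 fell and 3 rose (median -0.81), beside 30.6% and 31.5% of all rows. In the most abundant bin of rows 67.6% fell. With the library scaling undone 18 members fell and 6 rose (median -0.43). GSC2, the alternative glucan synthase subunit, rose from 40.6, 45.3 and 42.7 RPKM to 156, 149 and 156 (1.82 ± 0.06), while FKS1, the vegetative one, fell from 360.3 to 179.9 (-0.99 ± 0.10). PIR5, another Pir family gene, rose from 4.85 to 30 RPKM (2.41 ± 0.14). The list took 1.87 ± 0.125% of reads in wild type and 1.18 ± 0.012% in cdk8∆ (SD, n = 3).

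All 11 tested histone genes fell (median -0.47), beside 30.6% of all rows. In the most abundant bin of rows, where the histone genes named below lie, 67.6% fell and the median was -0.39. Under quantile normalization, however, 7 fell and 1 rose (median -0.20), and with the library scaling undone 5 fell and 1 rose (median -0.09). HHF2, for histone H4, was at 769.7, 742 and 779.9 RPKM in wild type and 352, 336 and 341 in cdk8∆ (log2 change -1.15 ± 0.05, limma adjusted p = 6.86e-09), and HHT2, for H3, at 958, 878 and 930.4 and 445, 425 and 429 (-1.09 ± 0.05). HTB1 and HTA1, for H2B and H2A, fell by 0.94 ± 0.06 and 0.89 ± 0.05. The libraries were depleted of ribosomal RNA per the labels' protocols, and 0.237 ± 0.00738% of wild type reads and 0.18 ± 0.00312% of cdk8∆ reads came from histone genes (SD, n = 3).

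Ribosomal protein genes fell against wild type but, for the most part, not against the SAC3 mutants. All 57 tested small subunit genes and 79 of 81 large subunit genes fell against wild type, with medians of -0.65 and -0.61 that became 0.00 and 0.04 under quantile normalization, where 6 and 10 fell. With the library scaling undone 46 and 60 fell (medians -0.27 and -0.23). Against sac3∆ 16 of the small subunit genes rose and 3 fell (median 0.11), and 24 large subunit genes rose and 5 fell (0.09), beside 31.2% and 32.9% of all rows. RPS16A was at 1425, 1370 and 1362 RPKM in wild type, 767, 834 and 800.1 in sac3∆, 812, 746 and 828 in R288D and 924, 835 and 879.8 in cdk8∆, so that all 3 mutants lay below wild type, although quantile normalization made its change 0.065. Ribosomal proteins took 10.2 ± 0.353% of reads in wild type, 8.78 ± 0.114% in cdk8∆ (SD, n = 3) and 6.43 to 7.31% in the samples of the other groups. RPS28B and RPS9A went further: RPS28B fell from 342 ± 55.3 to 68.9 ± 9.88 RPKM (-2.29 ± 0.25) and RPS9A from 257, 244 and 242 to 109, 102 and 109.6 (-1.21 ± 0.07), and both were also below sac3∆ (-1.64 and -1.16). Their close paralogs RPS28A and RPS9B changed by -0.44 and -0.65, or 0.24 and -0.01 under quantile normalization. Ribosome biogenesis genes fell in all 3 comparisons, 52 of 56 against wild type (median -0.53), 47 against sac3∆ and 48 against R288D, with none called higher. With the library scaling undone 22 fell and 1 rose against wild type (median -0.16). BRX1, an assembly factor of the large subunit, went from 162, 161 and 159.7 to 84.3, 81.1 and 85.6 RPKM (-0.94 ± 0.07). The list's read share, 0.885 ± 0.037% in wild type and 0.842 ± 0.0247% in cdk8∆ (SD, n = 3), overlapped between the groups.

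Transport and vitamin genes gave many of the remaining rises. PTR2, the di- and tripeptide transporter, was at 7.77, 7.27 and 7.24 RPKM in wild type, 37.7, 38.8 and 36.4 in sac3∆, 36.6, 38.5 and 35.7 in R288D and 95.2, 95.8 and 95.6 in cdk8∆. The 4 groups spread little, and the rise of 11.5-fold over wild type (log2 change 3.52 ± 0.05, limma adjusted p = 2.68e-13) was 1.32 against sac3∆. Of 23 tested thiamine and vitamin B6 genes 21 rose and 1 fell (median 0.75), beside 31.5% and 30.6% of all rows. Under quantile normalization 17 rose and 2 fell (median 0.45). THI7, the thiamine transporter, rose from 25, 29.3 and 24.4 RPKM to 96.4, 93.1 and 94.2 (1.82 ± 0.07) and THI73, a transporter-like gene, from 3.49, 3.65 and 3.66 to 22.1, 22.8 and 22 (2.34 ± 0.10). PHO3, a thiamine-repressed acid phosphatase, was the member that fell (-0.90 ± 0.10). The sequence-alike THI11, THI12 and THI13 rose by 1.27, 1.38 and 1.64, values that reads shared between the copies make uncertain.

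In the list of sulfate and methionine genes 22 of 34 rose and 8 fell against wild type, beside 31.5% and 30.6% of all rows. The median was 0.40, or 0.78 with the library scaling undone. Against sac3∆ 24 rose and 2 fell (median 0.88), beside 31.2% and 32.9% of all rows. SUL1, a sulfate permease, rose from 4.09, 2.89 and 4.75 RPKM to 26.4, 28.7 and 26.6 (log2 change 2.54 ± 0.15, limma adjusted p = 5.33e-08). MET1 rose from 26.2, 26.3 and 28.6 to 60.7, 60.8 and 59.9 (1.13 ± 0.05) and the S-methylmethionine permease MMP1 from 20.3 to 82.7 (1.97 ± 0.13). MET6, methionine synthase, fell from 2423, 2391 and 2280 RPKM to 1054, 985 and 1015 (-1.22 ± 0.05) and the S-adenosylmethionine synthetase SAM1 from 796, 776 and 773 to 372, 358 and 379 (-1.08 ± 0.05), both to levels near or above those of the SAC3 mutants, at 707 and 905 for MET6 and 386 and 380.3 for SAM1. In NAD synthesis 10 of 16 rose and 3 fell, beside 31.5% and 30.6% of all rows (median 0.52, or 0.90 with the library scaling undone). BNA2, the first enzyme of the kynurenine route, rose from 19, 19.9 and 16.7 RPKM to 60.2, 62.6 and 58.8 (1.66 ± 0.07), while PNC1, the nicotinamidase that is also a stress gene, fell from 1008, 963 and 929.8 to 364, 363 and 363 (-1.41 ± 0.08).

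Most nitrogen catabolite repressed and phosphate genes rose against wild type. Of 33 tested nitrogen catabolite repressed genes 25 rose and 4 fell (median 0.47, or 0.84 with the library scaling undone), but against sac3∆ 13 rose and 11 fell beside 31.2% and 32.9% of all rows (median 0.02, or -0.01 under quantile normalization). PUT4, the proline permease, rose from 1.65, 1.61 and 2.52 RPKM to 15.3, 14.9 and 15.4 (2.48 ± 0.17) and GAP1, the general amino acid permease, from 35.3, 34.4 and 39 to 84.4, 95.8 and 86.3 (1.27 ± 0.07). Of 22 phosphate genes 14 rose and 3 fell, beside 31.5% and 30.6% of all rows (median 0.26, or 0.64 with the library scaling undone). PHO5, the secreted acid phosphatase, went from 9.6, 9.84 and 9.75 to 21.6, 25.7 and 25.3 RPKM (1.23 ± 0.09), SPL2, an inhibitor of the low-affinity phosphate route, from 4.74, 2.78 and 1.96 to 20.1, 24.7 and 20.6 (2.50 ± 0.24), and PHO84, the main transporter, did not pass (-0.40). PHO84 did pass under quantile normalization (-0.78, limma adjusted p = 0.00675), without the filter on low values (0.0303) and without a mean trend (0.019). All 8 tested aryl alcohol dehydrogenase and nitroreductase-like genes rose (median 0.80), beside 31.5% of all rows. Under quantile normalization 7 rose (median 0.68). The pseudogene AAD6 rose only by 0.21 ± 0.08 (limma adjusted p = 0.046) and was lower than in sac3∆ and R288D (-0.36 and -0.56). FRM2 of this list (YCL026C-A, chromosome III, 74704 to 75285, minus strand) went from 1.87, 1.66 and 3.33 RPKM to 38.5, 33.5 and 34.9, clear of every other sample, a rise of 11.4-fold (log2 change 3.51 ± 0.17, limma adjusted p = 1.27e-08). The AAD genes are close copies of each other, and AAD4 rose by 1.41 ± 0.09.

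Other leading rises were spread over several functions. DPA10, a small open reading frame (YLR307C-A, chromosome XII, 746848 to 747111, minus strand), was at 6.18, 4.19 and 5.68 RPKM in wild type and 83.6, 90.7 and 86.9 in cdk8∆, 14-fold more (log2 change 3.81 ± 0.19, limma adjusted p = 1.52e-08). It lies beside CDA1, on the opposite strand. SRL4, a gene linked to nucleotide supply, rose from 2.12, 2.45 and 1.7 to 21.6, 23.9 and 21.4 (2.92 ± 0.16). ANB1, the hypoxic copy of translation factor eIF5A, rose from 25.2, 23.8 and 22.8 to 148, 134 and 153 RPKM (2.55 ± 0.09), a value that reads shared with its aerobic copy HYP2 make uncertain. AUS1, a sterol importer used without oxygen, rose from 12.8, 13.5 and 12.8 to 44.9, 44.4 and 43.4 (1.69 ± 0.06). IMD2, IMP dehydrogenase, was at 26, 25.9 and 26.9 RPKM in wild type, 10.8 in sac3∆, 9.44 in R288D and 118, 113 and 118 in cdk8∆, with log2 changes of 2.10 ± 0.07 against wild type and 3.32 against sac3∆. YIG1, an inhibitor of glycerol synthesis and the divergent neighbour of CSM4, rose by 2.55 ± 0.28.

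Metal, oxygen and respiration genes gave mixed lists. Of 34 tested iron and copper genes 21 rose and 6 fell, beside 31.5% and 30.6% of all rows. The median was 0.32, or 0.70 with the library scaling undone. Against sac3∆, however, 10 rose and 16 fell (median -0.11), beside 31.2% and 32.9% of all rows. Against R288D 13 rose and 14 fell (median -0.06), beside 31.4% and 32.3%. CTR1, the high-affinity copper transporter, fell from 263, 279 and 274 RPKM to 103, 113 and 107 (log2 change -1.33 ± 0.04, limma adjusted p = 6.40e-10), and FET3, the multicopper oxidase of iron uptake, from 202, 211 and 204 to 106, 105 and 101 (-0.98 ± 0.06). FRE4, a ferric reductase, rose from 2.92 to 19.1 RPKM (2.36 ± 0.12). Of 26 tested genes of the aerobic repression and seripauperin list 15 rose and 4 fell, beside 31.5% and 30.6% of all rows. The median was 0.35, or 0.20 under quantile normalization and 0.68 with the library scaling undone. The close copies among the PAU members of the list leave their values uncertain. Of 36 respiratory chain and ATP synthase genes 26 fell and 1, CYC1 for cytochrome c, rose (median -0.47). Under quantile normalization 15 fell and 7 rose (median -0.11), and with the library scaling undone 14 fell and 9 rose (median -0.09). Against sac3∆ 10 rose and 6 fell (median 0.07), beside 31.2% and 32.9% of all rows. The respiratory list took 0.64 ± 0.0155% of reads in wild type and 0.5975 ± 0.0152% in cdk8∆ (SD, n = 3). In the samples of the other groups it took 0.499 to 0.557%. The call of CYC1, at 0.31, ended without cdk8∆ replicate 1 or wild type replicate 2 (limma adjusted p of 0.0602 and 0.0519). Of 18 mRNA export genes 12 fell and 1 rose, beside 30.6% and 31.5% of all rows. Their median of -0.25 became 0.13 when the library scaling was undone. YRA1, an export adaptor, was at 580.4, 549 and 543 RPKM in wild type, 1078, 1097 and 1001 in sac3∆, 1000, 1035 and 1023 in R288D and 325, 313 and 316 in cdk8∆. It was thus lowest in cdk8∆ and highest in the SAC3 mutants, with log2 changes of -0.81 ± 0.05 against wild type and -1.73 against sac3∆.

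The cdk8∆ samples were also set against sac3∆ and R288D directly. The 3 comparisons share those samples and are not independent. All 9 other samples were sac3∆ cells. In each comparison SAC3 thus changed along with CDK8, and their effects cannot be told apart. Against sac3∆ 1909 rows rose (31.2%) and 2015 fell (32.9%), and against R288D 1925 rose (31.4%) and 1978 fell (32.3%). Rows whose 3 cdk8∆ values lay beyond all 9 others and which were called the same way in all 3 comparisons numbered 1191 higher (19.4%) and 1136 lower (18.5%). This stricter rule was applied only to the values as deposited. Their scaled library sizes, as a multiple of the reads recovered, were 1.14 to 1.18 in cdk8∆ and 0.864 to 0.999 elsewhere. By the rule 38 of 47 stress genes, all 33 proteasome genes, 41 of 56 ribosome biogenesis genes, 16 of 21 glycolytic genes and 22 of 28 cell wall genes were lower. The ribosome biogenesis count depended on the scaling. Its read shares in cdk8∆ samples, 0.821 to 0.87%, lay within the 0.776 to 1% of the other 9. Higher by the same rule were 15 of 16 peroxisomal, 16 of 22 glucose-repressed, 17 of 23 thiamine and B6, 18 of 34 sulfate and methionine and 10 of 22 meiotic genes. Of 26 pheromone genes 6 were higher by it, a share near that of all rows, and 3 of 57 small and 3 of 81 large subunit ribosomal protein genes were lower.

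**Figure D5:**
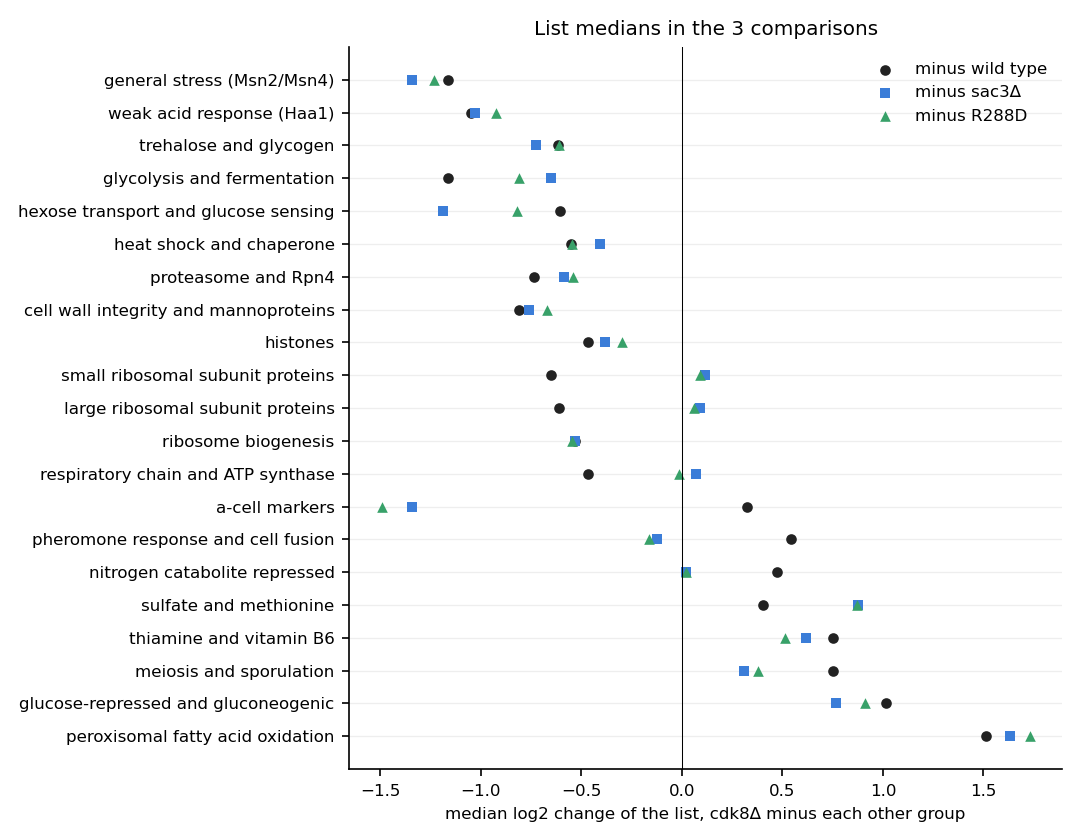
The median log2 change of 21 gene lists in the 3 comparisons, cdk8∆ minus wild type (circles), minus sac3∆ (squares) and minus R288D (triangles). The stress, proteasome and peroxisomal medians lie close together in all 3, whereas that of the small ribosomal subunit is -0.65 against wild type (0.00 under quantile normalization) and 0.11 against sac3∆, and that of the a-cell genes 0.32 and -1.34.

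For some genes the direction depended on the group compared. ZRT1, the high-affinity zinc transporter, was at 989, 1033 and 957 RPKM in wild type, 49.7, 44 and 50.1 in sac3∆, 192, 207 and 171 in R288D and 340, 328 and 329.8 in cdk8∆. Its groups did not overlap, and cdk8∆ was lower than wild type (log2 change -1.57 ± 0.07, limma adjusted p = 5.72e-09) and higher than sac3∆ (2.77, 6.25e-11) and R288D (0.81, 1.14e-06). ADH4, a zinc-regulated alcohol dehydrogenase, followed the same order, at 230.4 RPKM in wild type, 130.5 in cdk8∆, 70.7 in sac3∆ and 71.5 in R288D. YHB1, the flavohaemoglobin, fell from 408, 411 and 412 RPKM to 139, 137 and 133 (-1.58 ± 0.05) and stood at 103 and 135 in the SAC3 mutants. INH1, the ATP synthase inhibitor, fell from 182, 159 and 177 to 58.9, 61.5 and 59.5 (-1.51 ± 0.07), with no passing difference from sac3∆ (0.07, limma adjusted p = 0.378). For both genes wild type lay above all samples of the 3 mutants.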

How the data were processed

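RNA depleted of ribosomal RNA was sequenced from 12 samples in 4 groups of 3. The values are RPKM deposited by the authors in 1 table of 7126 rows. Tools named per the submitters' processing notes are edgeR, limma and R 3.0.1, TopHat2 2.0.9 and HTSeq 0.5.4p3, with the R64 genome, and their roles are not stated. Neither the strand setting nor the handling of reads from near-identical copies is given in the sources used here. Of the rows, 6162 were matched to RefSeq R64 by identifier.

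Rows averaging 1 RPKM or more across the 12 samples (6124) were converted to log2(RPKM + 1) and fitted with limma 3.58.1 in R 4.3.3, with 4 group means, a mean-variance trend and Benjamini-Hochberg adjustment over all 6124, at a threshold of 0.05. All 12 samples shared 1 estimate of the spread (8 residual degrees of freedom). With 3 samples against 3, an exact permutation test of a single gene could not go below 0.1. Low RPKM values are multiples of what 1 read is worth, which gave each sample's depth, 16.2 to 22.4 M reads (mega-reads), with 99.3 to 99.7% of values under 300 reads within 0.1 of a whole read. Other steps used pandas 2.3.3 and numpy 2.4.6 under Python 3.11.15 and matplotlib 3.10.9, and the fit was tested on simulated data.

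The comparison, its members and the gene lists were chosen with earlier results of these data known. Genes named are the deleted loci with 3 neighbours on each side, Mediator and TREX-2 members, the 15 largest called rises and 15 largest falls, the 8 largest each way beyond all 9 other samples, and up to 4 members of each list with the lowest adjusted p. Regulators and isozymes outside this rule were named after their values were seen. Promoter windows were searched for motifs on both strands.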

Additional observations from a re-analysis of the deposited data

How the results depend on the processing

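The deletion of SSN3 and the counts of calls were recomputed under each alternative. With library sizes rescaled to the recovered reads 4074 rows were higher and 678 lower, 605 of them at least 2-fold higher and 103 at least 2-fold lower. Rises of at least 2-fold numbered 134 with a pseudocount of 5, 127 with a filter at a mean of 10 RPKM, where scarce genes are removed, and 185 under quantile normalization. With each sample left out in turn, the SSN3 log2 change ran from -5.44 to -5.35, calls against wild type from 3393 to 3590, higher ones from 1688 to 1812, lower ones from 1705 to 1778, rises of at least 2-fold from 276 to 296 and falls from 203 to 215, calls against sac3∆ from 3513 to 3708 and against R288D from 3559 to 3991. The remaining values of these counts were within 1.5 times those reported. Of 49 gene lists, 31 kept the sign of the median under each of 3 scalings and 18 did not. Under quantile normalization the changes of ALD2 (-0.009), RPS16A (0.065), RPS28A (0.24) and ZIP1 (-0.33) turned sign, and the cause was not tested. Of 175 named genes other than SSN3, 155 kept their direction and side of the threshold with the scaling undone. Then CDC31, ELC1, GAL1, GAL80, HAA1, ISM1, MRX11, NBP2, NDT80, OAF1, SSY1, STE12, THP1 and ZIP1, which had not passed, were called higher, at 0.38 to 0.61. HAA1 and GAL80 also passed under quantile normalization (0.22 and 0.14), ADR1 with medians set equal (-0.26), and HOM2 (-0.52) and ISM1 (0.17) without wild type replicate 1. Same-numbered samples of the groups compared had correlated deviations of -0.15 to 0.156, so the numbers do not pair them, and a replicate block gave 1887 higher and 1838 lower calls. Scarce genes rest on few reads and carry the widest errors, and intervals from depth alone would cover counting error only.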

Other observations

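Spore wall genes, a list drawn up after the values were seen and given here as a description, rose in 12 of 14 tested members and fell in none (median 1.16, beside 0.01 for all rows, of which 31.5% rose and 30.6% fell), and under quantile normalization 8 rose and 2 fell (median 0.80). All 3 tested members of the Hsp30 family, listed in the same way, HSP30, YRO2 and MRH1, fell (median -2.88). Genes within 20 kb of a chromosome end had a median change of 0.58 over 137 protein-coding genes, against 0.00 over 5518 elsewhere. Of those near an end, 65% rose and 14.6% fell, and 27% rose at least 2-fold, against 3.77% elsewhere. They were also scarcer, with a median of 14.6 RPKM in wild type against 46.9, and the part of level in the difference was not tested.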
